A study of Mus musculus with 8 samples.

Results

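The Ly49 receptors are encoded by the *Klra* genes of the mouse natural killer gene complex. The 9 genes *Klra1*, *Klra3*, *Klra4*, *Klra5*, *Klra6*, *Klra7*, *Klra8*, *Klra9* and *Klra10* were taken by name, with earlier results of these data known. Each was matched from its symbol to 1 of the 54232 gene IDs of the count table. They were read in RNA-seq libraries of FACS-sorted splenic NK and CD8+ T cells of Tyk2 knockout (Tyk2-/-) mice, labelled C57BL/6 and described in the methods as of C57BL/6N background. TYK2 is a Janus kinase that relays cytokine signals. The mice were 8 to 12 weeks old, the cells were taken directly from spleens under homeostatic conditions without a stimulus, and the cells of 3 littermates were pooled for each of the 3 libraries per cell type. Both groups carry the knockout, so the comparison below is between cell types within 1 genotype. It cannot show an effect of TYK2, and any effect on either cell type is part of the values below.

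Ly49 proteins are lectin-like receptors on the surface of NK cells that bind MHC class I molecules or related viral proteins. Inhibitory members carry a tyrosine motif in their cytoplasmic tail, the ITIM, which recruits phosphatases such as SHP-1 when a normal cell is met. Activating members lack this motif and signal through the adaptor DAP12 (encoded by *Tyrobp*). Each NK cell expresses only a subset of the family, and some memory-like CD8+ T cells also express Ly49 genes. Of the 9 genes, *Klra4* (Ly49D) and *Klra8* (Ly49H, the receptor for the mouse cytomegalovirus protein m157) encode the 2 activating receptors, and *Klra1* (Ly49A), *Klra3* (Ly49C), *Klra5* (Ly49E), *Klra6* (Ly49F), *Klra7* (Ly49G), *Klra9* (Ly49I) and *Klra10* (Ly49J) are the 7 members named here as inhibitory from their receptor names and the motif codon shown next.

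The first 60 coding bases of each member are given below in the order inhibitory, then activating, because the difference between the 2 kinds of receptor is visible in them. They were read from the GENCODE transcripts of GRCm38, 5′ to 3′ from the start codon. The capitals mark codon 8, which lies in the ITIM of inhibitory Ly49 receptors.
Klra1: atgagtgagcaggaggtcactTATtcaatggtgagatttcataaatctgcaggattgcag
Klra3: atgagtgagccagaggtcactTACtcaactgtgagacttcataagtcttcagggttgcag
Klra5: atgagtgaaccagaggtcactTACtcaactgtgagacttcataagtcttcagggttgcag
Klra6: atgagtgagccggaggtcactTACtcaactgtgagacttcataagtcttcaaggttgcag
Klra7: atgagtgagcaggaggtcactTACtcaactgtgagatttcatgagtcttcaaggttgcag
Klra9: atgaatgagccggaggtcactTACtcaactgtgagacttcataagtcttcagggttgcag
Klra10: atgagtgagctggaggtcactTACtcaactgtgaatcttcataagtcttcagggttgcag
Klra4: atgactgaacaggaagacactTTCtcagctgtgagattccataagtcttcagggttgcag
Klra8: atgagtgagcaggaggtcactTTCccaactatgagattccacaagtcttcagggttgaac
In the 7 inhibitory members codon 8 was TAC or TAT, the codons for tyrosine, and in the 2 activating members it was TTC. Over the whole coding sequence the activating members were not each other's closest relatives. *Klra4* and *Klra8* were identical at 78.5% of 786 aligned bases, whereas *Klra4* was 88.3% identical to *Klra1*, and *Klra8* was 91.9% identical to *Klra9*. Over all 36 pairs of members the identity ranged from 76.5% to 96.9%.

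The members are so alike that a read of 50 bases can fall on several of them, and reads that aligned to more than 1 place were left out of the counts by the authors. *Klra3*, *Klra9* and *Klra10* were the most alike, with 95.9% to 96.9% identity between pairs. Their coding bases 536 to 655 are shown because they differed at only 2 of 120 positions, marked by capitals.
Klra3: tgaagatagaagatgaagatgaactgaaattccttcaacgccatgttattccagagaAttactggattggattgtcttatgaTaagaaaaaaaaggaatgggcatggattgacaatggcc
Klra9: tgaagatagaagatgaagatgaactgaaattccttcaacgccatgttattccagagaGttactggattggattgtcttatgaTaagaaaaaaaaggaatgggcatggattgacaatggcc
Klra10: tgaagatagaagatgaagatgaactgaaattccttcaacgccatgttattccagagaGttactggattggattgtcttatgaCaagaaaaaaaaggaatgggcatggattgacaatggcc
In 10 of the 36 pairs at least 50 coding bases in a row were identical. Of the 50-base positions in the annotated exons, 60.2% of those of *Klra10*, 66.9% of *Klra8*, 68.5% of *Klra9* and 79.3% of *Klra3* occurred in no other annotated transcript, against 87.7% for *Klra7* and 95.3% to 99.3% for *Klra1*, *Klra4*, *Klra5* and *Klra6*. The largest overlaps were the 230 positions shared by *Klra8* and the pseudogene *Klra14-ps*, the 167 shared by *Klra3* and *Klra9* and the 166 shared by *Klra9* and *Klra10*. Counts of these genes are therefore uncertain, and levels are given below on several lengths.

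Total counts per library lay between 20957384 and 26144478 for CD8+ T cells and between 32848432 and 38573550 for NK cells. Genes with a count numbered between 12893 and 14042 in CD8+ T cell libraries and between 17224 and 17373 in NK cell libraries. The part of this difference in the counts of 0 in CD8+ T cells below was not tested. *Tyk2* itself had 3864, 4245 and 3207 raw counts in NK cells against 105, 919 and 554 in CD8+ T cells, and no WT library was set beside them. *Ncr1* (NKp46), which defines NK cells, had 0 counts in each CD8+ T cell library, and *Cd8b1* had 0 counts in each NK cell library. *Cd8a* had 22, 0 and 0 counts in NK cells. *Cd3d* had 2978, 8065 and 6290 there, *Cd3g* 4879, 7598 and 4337 and *Cd3e* 276, 509 and 227. These 5 CD8+ T cell markers summed to between 7935 and 13546 normalised counts in NK cells but between 227019 and 268059 in CD8+ T cells. The part of T cells in the NK cell libraries was not tested. The summed normalised count of 5 NK cell markers lay between 4712 and 11003 in CD8+ T cells but between 1204901 and 1572682 in NK cells. *Cd79a* and *Ms4a1* of B cells summed to 920.1 normalised counts in CD8+ T cell library 1 and to at most 28.2 in the other libraries, and the part of B cells in the results was not tested. Between the cell types, 1567 of 14062 genes tested (11.1%) were called by edgeR's quasi-likelihood test at a Benjamini-Hochberg adjusted p-value below 0.05 with a log2 fold change beyond ±1, 858 of them (6.1%) higher and 709 (5.04%) lower in NK cells. The replicates are separate pools, and in bulk RNA fewer cells expressing a gene and less RNA per cell cannot be told apart.

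As a family, the Ly49 genes were transcribed in NK cells and close to absent in CD8+ T cells. The 9 genes together had 63117, 91475 and 92162 counts in the NK cell libraries, or 0.192%, 0.237% and 0.246% of all counts. In the CD8+ T cell libraries they had 4, 505 and 373 counts, or 1.9e-05%, 0.00239% and 0.00143% of all counts. The lowest NK cell library was 99.2 times the highest CD8+ T cell library after normalisation. NK cells thus had a mean of 73631 ± 11027 normalised Ly49 counts and CD8+ T cells one of 328.4 ± 308.5 (SD, n = 3 each). A two-sided exact permutation test gave p = 0.1, the lowest value possible with 3 against 3 libraries. For each of the 9 members the lowest NK cell library exceeded the highest CD8+ T cell library, which held for 25.5% of all genes tested. All 9 passed the filter on low counts through their values in NK cells, so that this count carries no weight of its own.

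**Figure D1:**
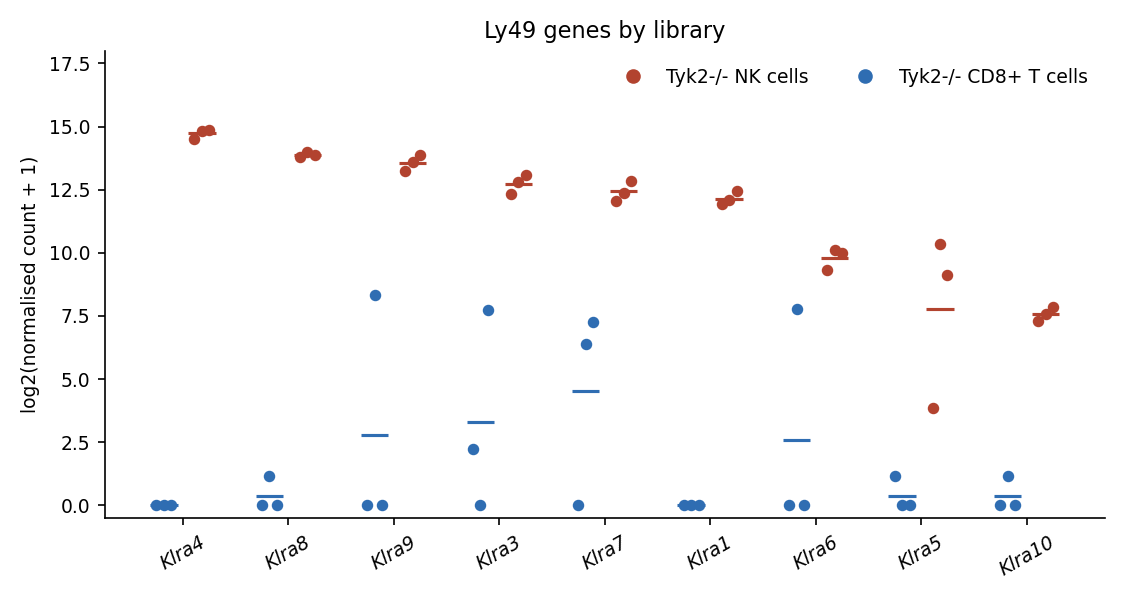
Each point is 1 library, plotted as log2 of the TMM-normalised count plus 1 for the 9 Ly49 genes, in NK cells (red) and CD8+ T cells (blue) of Tyk2-/- mice, with a line at the mean of the 3 libraries. NK cell libraries lie above CD8+ T cell libraries for every gene, 1 or 2 CD8+ T cell libraries lie well above 0 for *Klra9*, *Klra3*, *Klra7* and *Klra6* and 1 lies just above 0 for *Klra8*, *Klra5* and *Klra10*, and *Klra5* spreads widest among NK cell libraries.

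The 2 activating receptors differed most clearly between the cell types. *Klra4*, for Ly49D, is on chromosome 6 of GRCm38, minus strand, between 130043731 and 130067271. It had 24199, 34466 and 33218 counts in NK cells and 0 in each CD8+ T cell library. Against a floor of 3 counts over the CD8+ T cell group it was at least 24493-fold higher in NK cells (edgeR, adjusted p = 0.000255). *Klra8*, for Ly49H, lies from 130115226 to 130129898. It had 14635, 19247 and 16471 counts in NK cells and 0, 1 and 0 in CD8+ T cells, so that 1 read stood against 50353. The normalised ratio of 40268 had an exact 95% interval from 7227 to 1590535 that covers counting error only (edgeR, adjusted p = 0.00017). Both genes were also the steadiest of the family among NK cells, with coefficients of variation of 12.4% (*Klra4*) and 6.41% (*Klra8*) over the 3 libraries.

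Among the inhibitory receptors, *Klra1* was the only one without a read in CD8+ T cells. *Klra1*, for Ly49A, lies from 130363917 to 130386874 and had 3972, 5155 and 6158 counts in NK cells. It was at least 4075-fold higher in NK cells against the same floor (edgeR, adjusted p = 0.000795). *Klra4*, *Klra8* and *Klra1* were called in each of the 9 alternative fits.

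*Klra10* and *Klra5* were called as well, with 1 read each in CD8+ T cells, but on far fewer counts. *Klra10*, for Ly49J, lies from 130269194 to 130281928 and had 159, 224 and 255 counts in NK cells and 0, 1 and 0 in CD8+ T cells. Its normalised ratio was 510.2, with an exact 95% interval of counting error from 91.2 to 20184 (edgeR, adjusted p = 0.0386). The call was lost without a filter on low counts (adjusted p = 0.0543), without CD8+ T cell library 1 (0.0503) and without NK cell library 1 (0.136), 2 (0.134) or 3 (0.139). *Klra10* also had the smallest share of positions of its own, and reads that match *Klra3* or *Klra9* as well were not counted.

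*Klra5*, for Ly49E, which is known as the Ly49 of fetal NK cells, lies from 129898996 to 129917650. It had 14, 1574 and 610 counts in NK cells and 1, 0 and 0 in CD8+ T cells. NK cell library 2 was thus 96.8 times NK cell library 1 after normalisation, whereas for the other 8 members the highest NK cell library was 1.13 to 1.74 times the lowest. Among the 4082 genes that reached the maximum of *Klra5* in an NK cell library, 4 spread at least as far, *Klra5* included, a count made after the values had been seen. Its normalised ratio over all libraries was 1758, with an exact 95% interval of counting error from 315.2 to 69460 (edgeR, adjusted p = 0.0412). The call was lost without CD8+ T cell library 1 (adjusted p = 0.0869), 2 (0.0764) or 3 (0.0729) and without NK cell library 2 (0.152) or 3 (0.131).

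The remaining 4 inhibitory genes had more reads in CD8+ T cells, in 1 or 2 libraries each, and 1 of the 4 was called. *Klra7*, for Ly49G, lies from 130218605 to 130233322 and had 4387, 6334 and 8252 counts in NK cells and 0, 67 and 156 in CD8+ T cells. Its log2 fold change was 6.18 (standard error 1.48, here and below derived from the F statistic, adjusted p = 0.0455, edgeR). The call was lost without CD8+ T cell library 2 (adjusted p = 0.0845) or 3 (0.0525) and without NK cell library 1 (0.131), 2 (0.133) or 3 (0.148).

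*Klra3*, for Ly49C, lies from 130323289 to 130337574 and had 5253, 8473 and 9572 counts in NK cells and 3, 0 and 217 in CD8+ T cells. Its log2 fold change of 6.59 (standard error 1.90, adjusted p = 0.0703, edgeR) did not pass the threshold. *Klra9*, for Ly49I, lies from 130178675 to 130193112 and had 9839, 14697 and 16493 counts in NK cells and 0, 260 and 0 in CD8+ T cells. Its log2 fold change was 6.85 (standard error 2.19, adjusted p = 0.0901, edgeR). In both genes 1 CD8+ T cell library held nearly all reads of that cell type. Without CD8+ T cell library 3 the log2 fold change of *Klra3* was 11.79 (adjusted p = 0.00264, edgeR). Without library 2 that of *Klra9* was 16.64 (adjusted p = 0.00117, edgeR), a fitted value that depends on the prior count, as no read was left in CD8+ T cells. Leaving out any other library left each of these genes uncalled by edgeR, at adjusted p-values of 0.0675 to 0.16 for *Klra3* and 0.0902 to 0.192 for *Klra9*.

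*Klra6*, for Ly49F, lies from 130013033 to 130026954 and stood closest between the cell types. It had 659, 1305 and 1133 counts in NK cells and 0, 176 and 0 in CD8+ T cells, where library 2 reached 23.5% of the NK cell mean after normalisation. Its log2 fold change was 3.67 (standard error 2.32, adjusted p = 0.323, edgeR). Without CD8+ T cell library 2, which held all its reads in that cell type, the fitted value was 12.90 (adjusted p = 0.00866, edgeR) and likewise depends on the prior count. Leaving out any other library left *Klra6* uncalled (adjusted p = 0.319 to 0.508, edgeR). For *Klra3*, *Klra7* and *Klra9* the highest CD8+ T cell library was at 3.03%, 2.67% and 2.61% of the NK cell mean. In all, 6 of the 9 members were called, each higher in NK cells, beside the 6.1% of all genes called in that direction. DESeq2's Wald test called 8 of the 9, with *Klra6* left out, beside 14.6% of all genes called higher in NK cells by that test. *Klra9* was only just among these 8 (DESeq2, adjusted p = 0.04998). Since all 9 passed the filter on low counts through their values in NK cells, both counts of calls carry no weight of their own.

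The few Ly49 reads of the CD8+ T cell libraries were nearly all on inhibitory genes. Of the 882 Ly49 counts in CD8+ T cells, 1 was on an activating gene (0.113%, exact 95% interval 0.00287% to 0.63%, counting error only). Of the 246754 in NK cells, 142236 were (57.6%, exact 95% interval 57.4% to 57.8%, counting error only). By library the share in NK cells was 61.5%, 58.7% and 53.9% of raw counts, a wider spread than that interval. The reads in CD8+ T cells were on *Klra6*, *Klra7* and *Klra9* in library 2, apart from 1 each on *Klra8* and *Klra10*, and on *Klra3* and *Klra7* in library 3, and library 1 had 4 Ly49 counts in all. Of the NK cell markers in the CD8+ T cell libraries, *Ncr1* was at 0 in each. *Klrb1c* (NK1.1) had 1, 76 and 525 counts, *Klrd1* 2336, 7978 and 2791, *Eomes* 825, 350 and 1553 and *Gzma* 1412, 568 and 0. Of genes that mark memory CD8+ T cells, *Cd44* had 9, 374 and 94 counts, *Cxcr3* 2059, 697 and 6126 and *Il2rb* 1286, 1229 and 840. The part of other cells or of memory cells in these reads was not tested.

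In NK cells the members spanned a wide range of levels, which were compared per length only. Counts normalised by TMM were divided by the length of the annotated exons in kilobases. *Klra4* had the highest level, with 18913, 23189 and 23987 normalised counts per kb in NK cell libraries 1 to 3. *Klra8* followed with 12089, 13686 and 12570 and *Klra9* with 7485, 9625 and 11593. The ranges of these 3 genes did not overlap.

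The middle of the order was held by further inhibitory receptors. *Klra3* had 4129, 5733 and 6951 normalised counts per kb, and *Klra7* had 3375, 4194 and 5865. *Klra1* had 2317, 2589 and 3319. The libraries of *Klra3* and *Klra7* overlapped, whereas *Klra3* lay below *Klra9* in each library and *Klra1* lay below *Klra7* throughout.

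At the lower end, *Klra6* had 574.6, 979.5 and 912.7 normalised counts per kb. *Klra5* had 10.6, 1022 and 425.1, so that its place in the order was not fixed by these libraries. *Klra10* had 188, 228 and 278.6, and both *Klra6* and *Klra10* overlapped *Klra5*. The mean level of *Klra4* was 95.2 times that of *Klra10*. Of the 8 pairs of neighbours in this order, 5 did not overlap.

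**Figure D2:**
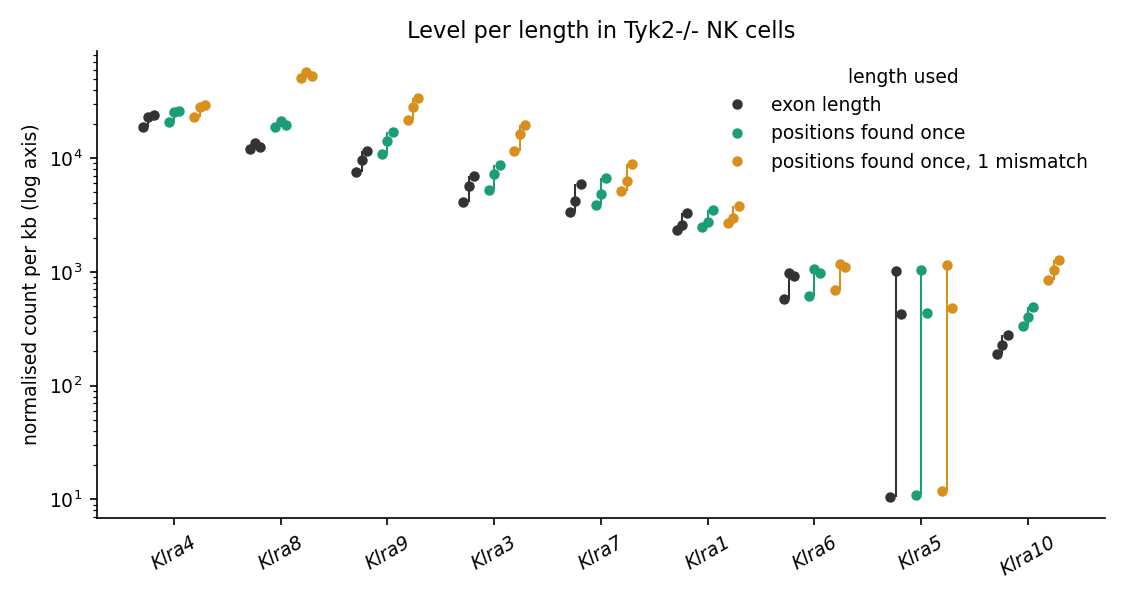
Level of each Ly49 gene in the 3 NK cell libraries as normalised count per kb on a log axis, with a line over the range. Black points divide by exon length, green points by the 50-base positions found in 1 gene only, and orange points by those left when 1 mismatch within the Ly49 genes is also excluded. *Klra4* is highest by exon length and *Klra8* is highest on the strictest length.

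The order at the top depended on the length used. The planned length was the number of unique 50-base read positions of a gene. The genome was not searched for these, so exon length took its place. A version added after seeing the data divided counts by the 50-base positions that occur in no other transcript. The mean was then 24059 ± 2979 (SD, n = 3) for *Klra4* and 19943 ± 1278 for *Klra8*, and the libraries overlapped. When positions within 1 mismatch of another Ly49 gene were left out too, the mean was 53393 ± 3422 for *Klra8*, 27875 ± 5985 for *Klra9* and 26995 ± 3343 for *Klra4*. *Klra8* was then above the other members in each library, and *Klra10* moved from the lowest mean (231.5) to 1047, above *Klra6* (987.8) and *Klra5* (547.9). The place of *Klra4*, *Klra8* and *Klra9* at the top and of *Klra5*, *Klra6* and *Klra10* at the bottom was the same on all 3 lengths.

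The share of the family's counts on activating receptors changed little with this choice. Per exon length, *Klra4* and *Klra8* together took 63.2%, 60.2% and 55.5% of the Ly49 counts in the NK cell libraries (59.6% ± 3.88, SD, n = 3). The mean was 58.1% from raw counts, 59.1% per position of the gene's own and 59.2% when 1 mismatch was allowed for. The division between the 2 genes did depend on it. *Klra4* alone took 37.6% ± 1.09 and *Klra8* 22.0% ± 2.79 per exon length, whereas on the strictest length *Klra4* took 19.8% ± 0.25 and *Klra8* 39.4% ± 4.31. Of the inhibitory receptors, per exon length, *Klra9* took 16.2% ± 1.24, *Klra3* 9.44% ± 1.07, *Klra7* 7.54% ± 1.18 and *Klra1* 4.66% ± 0.41. *Klra6*, *Klra5* and *Klra10* took 1.38% ± 0.21, 0.78% ± 0.83 and 0.39% ± 0.03. These are shares of RNA over a population of cells and not shares of cells with a receptor.

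**Figure D3:**
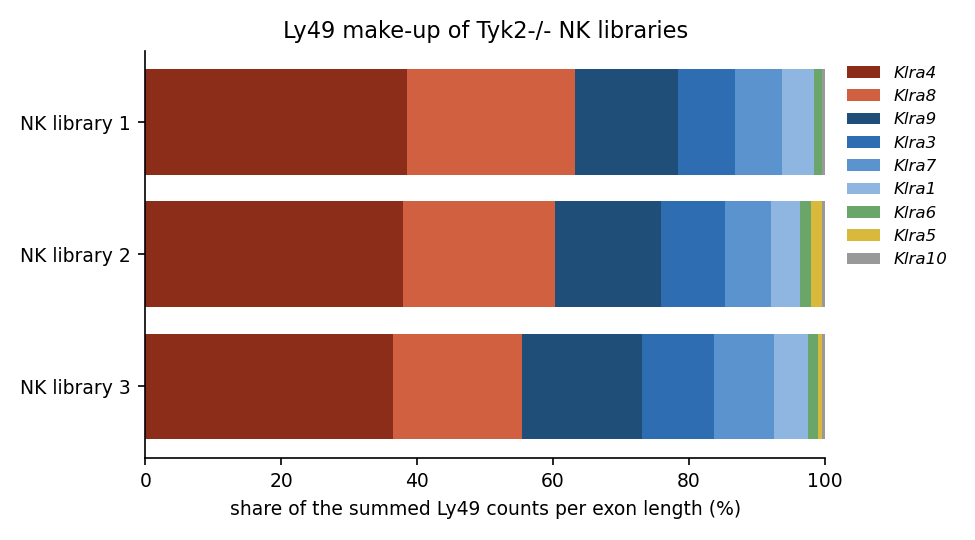
Share of each Ly49 gene in the summed Ly49 counts per exon length, in percent, with 1 bar for each of the 3 NK cell libraries of Tyk2-/- mice. The activating *Klra4* and *Klra8* (red shades) take 55.5% to 63.2% of each bar, and *Klra9* is the largest of the inhibitory genes.

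The members share their position. All 9 lie on the minus strand of chromosome 6 within 487.9 kb, from *Klra5* at one end to *Klra1* at the other, and 11 other annotated genes lie between them. Of these, 6 are snRNA genes, and 6 of the 11 had no count in any library. The remaining counts were mainly on 3 Ly49 pseudogenes. *Klra13-ps* had 12286, 15271 and 12678 counts in NK cells and 12, 239 and 0 in CD8+ T cells (log2 fold change 6.88 ± 1.84 SE, edgeR adjusted p = 0.0601). *Klra14-ps* had 2849, 3562 and 3174 counts in NK cells and 0 in CD8+ T cells, at least 2555-fold higher against the floor of 3 counts (adjusted p = 0.00104, edgeR), and *Klra11-ps* had 70, 111 and 141 against 0. These 3 together had 24.1%, 20.7% and 17.4% as many counts as the 9 members in the NK cell libraries, and since *Klra13-ps* shares 155 positions of 50 bases with *Klra7* and *Klra14-ps* shares 230 with *Klra8*, the division of reads between gene and pseudogene is uncertain.

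Of the 6 protein-coding genes nearest to the cluster, 4 had at most 39 counts in any library. Of the 3 protein-coding genes next to the *Klra5* end, *Gm17631* had no count, *Klra17* had 39, 0 and 4 and *Gm156* 1, 6 and 13 counts in NK cells. At the other end, *Klra2*, which lies apart from the cluster at 131219223, had 0, 1 and 0 counts in NK cells. *Magohb*, a component of the exon junction complex, had 193, 318 and 262 counts in NK cells and 143, 322 and 46 in CD8+ T cells. *Styk1* had 1229, 2115 and 754 counts in NK cells and 0 in each CD8+ T cell library.

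**Figure D4:**
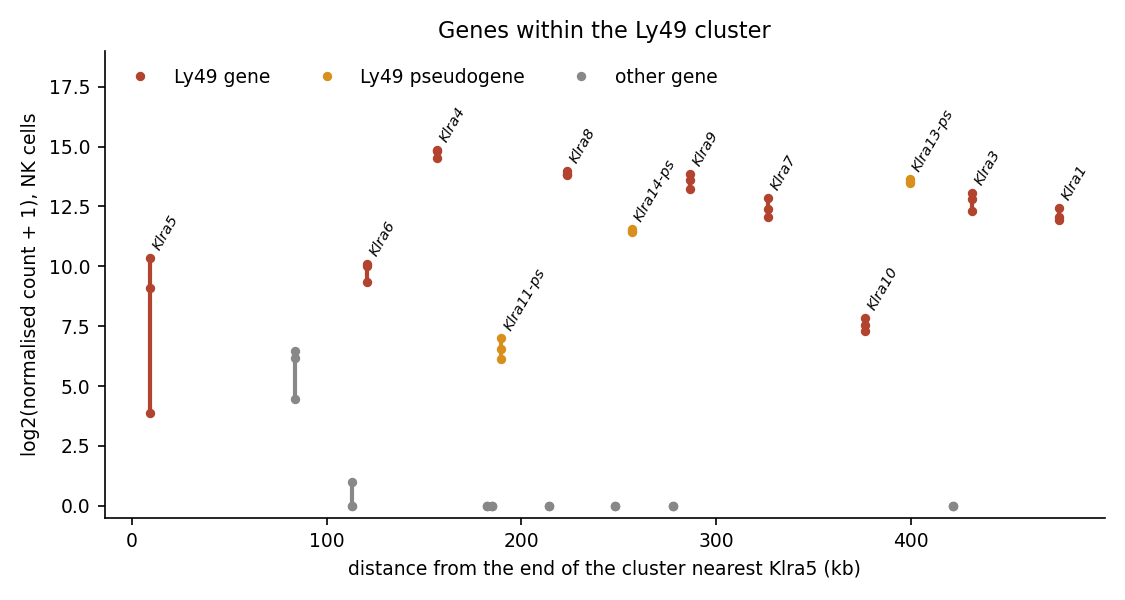
Normalised counts of the 20 genes within the Ly49 cluster in the 3 NK cell libraries, as log2 of the value plus 1, against the distance of the gene's middle from the cluster's end at *Klra5*, in kb. Ly49 genes (red) and Ly49 pseudogenes (orange) reach high values at separate places along the cluster, while most other genes (grey) lie at 0.

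Upstream of their start sites, several members share sequence. RefSeq (GRCm38.p6) gave 11 windows of 300 bases for the 9 members, from 250 bases before to 50 after the start, with 2 windows for *Klra7* and *Klra8*. A stretch of 80 bases is shown for both activating genes and for *Klra5* and *Klra6*, which range from the highest to nearly the lowest level in NK cells. The longest run common to these 4 genes before the start was 18 bases. The genes were chosen before this run was sought, and the other members were not searched for it. Capitals mark the positions at which the 4 differ, and all are read 5′ to 3′ on the minus strand. The stretches are chr6:130067280-130067359 for *Klra4*, chr6:130129908-130129987 for *Klra8*, chr6:129913244-129913323 for *Klra5*, which falls in an intron of the longer annotated transcript, and chr6:130027003-130027082 for *Klra6*.
Klra4: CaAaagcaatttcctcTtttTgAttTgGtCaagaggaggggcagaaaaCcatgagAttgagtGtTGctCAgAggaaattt
Klra8: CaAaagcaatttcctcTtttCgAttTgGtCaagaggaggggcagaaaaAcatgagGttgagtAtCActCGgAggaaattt
Klra5: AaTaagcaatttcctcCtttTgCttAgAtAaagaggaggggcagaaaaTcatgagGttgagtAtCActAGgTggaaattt
Klra6: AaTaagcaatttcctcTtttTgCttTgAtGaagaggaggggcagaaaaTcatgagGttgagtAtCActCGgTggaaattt
The 4 genes were identical at 64 of these 80 positions (80%). In all, 5 short motifs were searched on both strands of the 11 windows, and their shares were set beside those of all 32851 RefSeq windows of this length. TATAAA, of the TATA box, was found in 8 of the 11 windows and in 13.6% of all windows. TGTGGT (RUNX) and TCACAC (T-box) were each found only in the window of *Klra1*, and in 16.8% and 14.5% of all windows. CTTTGA (TCF/LEF) was found in 3 windows, of *Klra6* and *Klra7*, and in 16% of all windows, and GAAANNGAA (ISRE, the interferon-stimulated response element) was found in none and in 8.56% of all. The windows of near-identical genes are not independent of each other, and a match is a description of these letters only.

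The receptors signal through partners that T cells use in part as well, and these were compared in the same fit. Of the 19 signalling genes on the list, all tested, 4 were called higher and 1 lower in NK cells, beside 6.1% and 5.04% of all genes, and 14 were not called. The median log2 fold change was 0.79, beside 0.10 over all genes tested. *Tyrobp*, the DAP12 adaptor of Ly49D and Ly49H, had 270220, 332413 and 318804 counts in NK cells and 0, 544 and 0 in CD8+ T cells. Its log2 fold change of 10.28 (standard error 2.63, adjusted p = 0.054, edgeR) did not pass the threshold. CD8+ T cell library 2 alone held reads of *Tyrobp*, at 0.242% of the NK cell mean after normalisation. Without that library the fitted log2 fold change was 21.14, again with no read left in CD8+ T cells (adjusted p = 0.000314, edgeR). Leaving out any other library left *Tyrobp* uncalled (adjusted p = 0.0536 to 0.148, edgeR). DESeq2 called *Tyrobp* on all libraries, with a log2 fold change of 10.34 (adjusted p = 0.00319).

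Of the other adaptors, *Fcer1g*, the Fc receptor gamma chain, had 297389, 401504 and 404854 counts in NK cells and 117, 456 and 2 in CD8+ T cells and was called (log2 fold change 10.46 ± 1.81 SE, edgeR adjusted p = 0.0165). *Hcst* (DAP10), which couples receptors to PI3-kinase, had a log2 fold change of 0.79 (adjusted p = 0.0857, edgeR), and *Cd247*, the zeta chain, one of -0.73 (adjusted p = 0.063, edgeR). *Syk*, the kinase that binds phosphorylated DAP12, had 1324, 2360 and 1118 counts in NK cells and 0 in each CD8+ T cell library, at least 1280-fold higher against the floor of 3 counts (adjusted p = 0.00483, edgeR). Its relative *Zap70*, of the T cell receptor pathway, overlapped between the cell types, with a log2 fold change of -0.05 (standard error 0.21, adjusted p = 0.909, edgeR).

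The adaptor *Lat2* (NTAL) had 15403, 19935 and 21958 counts in NK cells and 0 in CD8+ T cells, at least 15273-fold higher against that floor (adjusted p = 0.000286, edgeR). *Lat*, the related adaptor of T cells, was lower in NK cells, with 10915, 10465 and 10983 counts against 21206, 17000 and 40293 (log2 fold change -1.55 ± 0.26 SE, edgeR adjusted p = 0.0148). Among the phosphatases that inhibitory receptors recruit, *Inpp5d* (SHIP1) had 11914, 13932 and 12148 counts in NK cells and 642, 1276 and 951 in CD8+ T cells (log2 fold change 3.39 ± 0.32 SE, edgeR adjusted p = 0.00184). *Ptpn6*, for SHP-1, overlapped between the cell types, with 14380, 14736 and 11675 counts in NK cells and 17532, 8294 and 9933 in CD8+ T cells (log2 fold change -0.16 ± 0.34 SE, edgeR adjusted p = 0.794). The calls of *Fcer1g* and *Lat* were lost without any 1 of the NK cell libraries, at adjusted p-values of 0.0596 to 0.0631 and 0.0721 to 0.0816.

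The MHC class I genes, whose products some of the inhibitory receptors bind, were abundant in both cell types. *H2-K1*, *H2-D1* and *B2m* had log2 fold changes of 0.36, 0.52 and -0.63, and none of the 3 was called (adjusted p = 0.125, 0.163 and 0.08, edgeR). Every NK cell library lay above every CD8+ T cell library for *H2-K1* and *H2-D1*, which held for 25.5% of all genes tested. For *B2m* every CD8+ T cell library lay above every NK cell library, and the share of all genes with that order was not counted.

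Of 7 transcription factors known to bear on Ly49 genes, 2 were called higher and 2 lower in NK cells, beside 6.1% and 5.04% of all genes, and 3 were not called (median log2 fold change 0.34). *Tcf7* (TCF-1), which is needed for *Klra1* expression in NK cells, had 1518, 2192 and 1990 counts in NK cells and 14906, 10032 and 16801 in CD8+ T cells (log2 fold change -3.20 ± 0.23 SE, edgeR adjusted p = 0.000739). *Lef1*, its relative, had a log2 fold change of -3.20 too (standard error 0.22, adjusted p = 0.000657, edgeR). *Tbx21* (T-bet) had 40199, 38755 and 33386 counts in NK cells and 0, 11 and 0 in CD8+ T cells (log2 fold change 12.91 ± 1.27 SE, edgeR adjusted p = 0.00216). *Eomes* had a log2 fold change of 3.41 (standard error 0.48, adjusted p = 0.00807, edgeR). *Runx3*, *Runx1* and *Ets1* were not called by edgeR, with log2 fold changes of 1.17, 0.34 and -0.36, whereas DESeq2 called *Runx3* (log2 fold change 1.24, adjusted p = 0.0279).

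**Figure D5:**
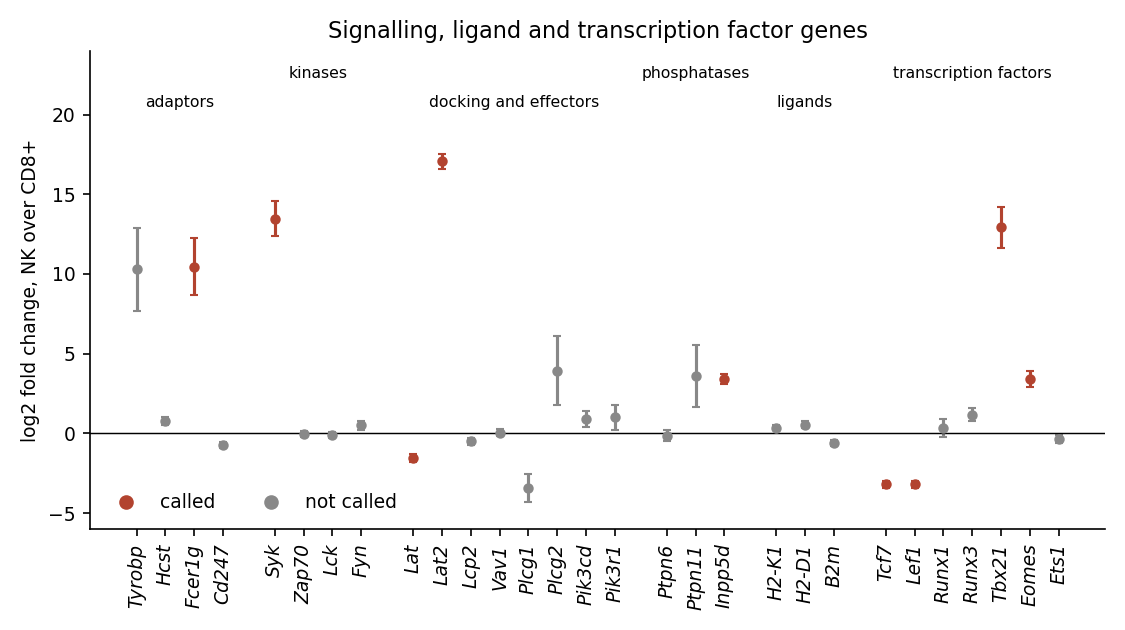
Log2 fold change (NK against CD8+ T cells, edgeR) for the signalling, ligand and transcription factor genes, in red where called and in grey where not. Error bars are standard errors derived from the F statistic. For genes without a read in CD8+ T cells the value and its bar depend on the prior count. *Lat2*, *Syk*, *Tbx21* and *Fcer1g* lie far above 0, *Tcf7*, *Lef1* and *Lat* below it, and *Zap70*, *Lck* and *Ptpn6* near it.

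The genes whose pattern over the 6 libraries was most like that of the summed Ly49 count were sought among all other genes tested, by the root mean square difference of centred log2 values. *Klrb1c* (NK1.1), another lectin-like receptor of NK cells, came first with 0.99 log2 units, followed by *Serpinb9*, an inhibitor of granzyme B, with 1.23 and *Gsap* with 1.35, beside a median of 5.06 over 14053 genes. *Serpinb9* had 15760, 24911 and 20206 counts in NK cells and 3, 54 and 519 in CD8+ T cells, and *Gsap* had 2221, 2560 and 2487 against 1, 57 and 21. All 3 had the fewest counts in CD8+ T cell library 1, as did the Ly49 sum by which they were chosen, so this carries no weight of its own. With 6 libraries in 2 groups this likeness rests mainly on the difference between the cell types.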

How the data were processed

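RNA of sorted splenic NK cells and CD8+ T cells was amplified by Smart-seq2 and made into libraries with Nextera XT, which does not mark strand, and sequenced as 50-base single-end reads. Per the submitters' processing notes, reads were trimmed with Trimmomatic 0.32 and aligned with STAR 2.7.1 to mm10 (GRCm38), with R 3.2.3 among the tools. The authors deposited raw counts per gene, made from reads in exons with 1 alignment only and not normalised, and whether strand was used in counting is not given in the sources used here. Of 104 columns of counts, 6 were used and 98 were not. The 3 columns of WT CD8+ T cells were not used, since the labels list 2 such samples, so WT was not compared. Libraries are numbered 1 to 3 within a cell type as the columns are, and these numbers name libraries only.

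A symbol was found for 54079 of 54232 gene IDs, and positions, exons and transcripts were taken from GENCODE release 21 of mouse (GRCm38). Counts were fitted in R 4.3.3 with edgeR 4.0.16 (TMM, a minimum of 10 for the mean normalised count, robust quasi-likelihood test, Benjamini-Hochberg adjustment over all 14062 genes). Normalised counts are scaled to the mean effective library size. DESeq2 1.42.0, RLE normalisation, no filter and leaving out each library in turn were the alternatives. The fit was also run on simulated data. It was run there at the dispersion of 1.24 of these data and at one far below it, and an outcome was required only at the lower one. The outcome at 1.24 is not reported here, so how the fit does at that spread is not shown. Floors of 3 counts and exact 95% intervals cover counting error only, as no molecular identifiers were used. For gene lengths, 50-base positions were compared over all annotated transcripts, not over the genome. Coding sequences were aligned with MAFFT 7.526, and Python 3.11.15, pandas 2.3.3, numpy 2.4.6, scipy 1.17.1 and matplotlib 3.10.9 were used for the rest.

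The members and all lists were chosen with earlier results of these data known. The genes named were the 9 members, all other genes with a Klra symbol, the genes of the cluster with the nearest 3 protein-coding genes on each side, the called and the defining genes of the signalling list, the ligand and transcription factor lists, the cell type markers and the 3 genes most alike. Markers of macrophages, plasmacytoid dendritic cells and erythroid cells summed to at most 38.7, 1107 and 44.8 normalised counts in any library, and *Cd4* reached at most 36 normalised counts. A further B cell marker is not reported here.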

Additional observations from a re-analysis of the deposited data

How the results depend on the processing

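No paired analysis was possible because the NK and CD8+ T cell libraries share no replicate numbers and the WT libraries were not used here. The planned comparison with WT CD8+ T cells and a search of read positions over the genome were not run, so exon length gave the levels. DESeq2 called 3537 genes in place of 1567, and 475 to 1876 were called with each library left out, with 475 to 485 when that library was of NK cells. The number of Ly49 genes called was 6, and 3 to 6 with each library left out. Of the signalling list, 4 were higher in NK cells, and 3 to 8 with each library left out, 8 of them without CD8+ T cell library 2, where *Tyrobp*, *Hcst*, *Plcg2* and *Ptpn11* were added. DESeq2 called 5 higher. The 1 signalling gene called lower became 2 with DESeq2, which added *Plcg1*, and 0 to 1 with each library left out. The cause of these changes was not tested.

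Every Ly49 gene kept a higher level in NK cells in each of the 9 alternative fits. Directions reversed only for signalling genes that were not called. *Zap70* (-0.05) was at 0.0137 with RLE normalisation and with DESeq2, and at -0.18 to 0.0586 with each library left out. Across the same fits *Lck* ranged from -0.21 to 0.011, *Vav1* from -0.0717 to 0.14 and *Ptpn6* from -0.35 to 0.32. The share of counts on activating receptors stayed between 57.8% and 61.7% with each NK cell library left out. The log2 ratio of the summed Ly49 counts was 7.81 and ranged from 7.23 to 8.65. With 3 libraries a group, effects on *Klra6*, *Klra9* and *Klra3* that rest on 1 CD8+ T cell library could not be resolved.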
